A study of Mus musculus with 3 samples.

Results

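Dual-specificity MAP kinase phosphatases remove phosphate from both the threonine and the tyrosine that switch on ERK, JNK and p38 kinases. The 9 genes described here, Dusp1, Dusp2, Dusp3, Dusp4, Dusp5, Dusp6, Dusp7, Dusp10 and Dusp16, were taken by their symbols. They are 9 of the 55536 gene IDs in the deposited tables and 9 of the 22028 protein-coding ones. The RNA came from the chromatin fraction of bone-marrow-derived macrophages of the mouse strain C57BL/6J, which are primary cells grown from marrow, and it was sequenced as total RNA after removal of ribosomal RNA. All 3 libraries belong to 1 group: the cells had been pre-treated with Lipid A, the part of lipopolysaccharide that the receptor TLR4 recognises, for 12 h at 100 ng per ml, kept without it for another 12 h, and collected at 0 min of a second exposure at the same dose. No untreated cells and no later time were analysed here, so the values are levels in cells that had already met Lipid A and then rested, not responses to it. The labels call the libraries biological replicates 1 to 3 but give them the same donor identifier and name no separate animals, so the spread between them may be partly technical.

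The phosphatases fall into groups by where they act and on which kinase. Dusp1, Dusp2, Dusp4 and Dusp5 encode nuclear enzymes whose genes are themselves switched on by MAP kinase signalling, and in macrophages Dusp1 is known for shutting off p38 and JNK after TLR4 ligands. Dusp6 and Dusp7 encode cytoplasmic enzymes that prefer ERK, Dusp10 and Dusp16 encode enzymes that prefer p38 and JNK, and Dusp3 encodes a small atypical member without the kinase-binding domain of the others. RNA bound to chromatin includes transcripts that are still being made or spliced, so the annotated splice form to which reads were assigned is a part of the readout.

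Dusp3 had the highest level of the 9 genes and Dusp5 the lowest. Levels are in TPM, which divides reads by the length of the transcripts they were assigned to and then scales each library to the same total. Comparisons between genes therefore depend on that assignment too. In Dusp1 and Dusp2, most of the TPM was assigned to transcripts that keep an intron, and in Dusp7 most of the read-based TPM was assigned to a 270-base non-coding transcript. The boundaries of the kept introns are shown because they are what separates these transcripts from the coding ones. Exon bases are in lower case and intron bases in capitals, read 5′ to 3′ on the strand of the gene, from the GENCODE M21 transcripts on mm10.
Dusp1-203, start of intron 2: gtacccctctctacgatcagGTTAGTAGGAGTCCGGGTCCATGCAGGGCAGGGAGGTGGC
Dusp1-202, the same exons joined: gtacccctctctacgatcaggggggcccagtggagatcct
Dusp1-204, start of intron 3: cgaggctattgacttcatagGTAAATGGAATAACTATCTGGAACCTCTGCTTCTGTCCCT
Dusp2-202, start of intron 2: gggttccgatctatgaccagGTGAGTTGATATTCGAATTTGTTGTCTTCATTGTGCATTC
Dusp2-201, the same exons joined: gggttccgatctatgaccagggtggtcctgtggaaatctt

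Dusp1-203 keeps the second of the 3 introns of the coding transcript Dusp1-202 (chr17:26507205-26507573, minus strand, 369 bases), and Dusp1-204 keeps the third (chr17:26506651-26506984, 334 bases). Dusp2-202 keeps the second of the 3 introns of the coding transcript Dusp2-201 (chr2:127336899-127337248, plus strand, 350 bases). All 3 introns begin with GT, end with AG and lie between coding exon bases. When the joined exons were compared base by base over 20 bases on each side of the junction, Dusp1 intron 2 and Dusp2 intron 2 were identical at 27 of 40 positions, whereas Dusp1 intron 3 matched each of them at 10 of 40. Intron 3 of Dusp2 was not compared, so the 10 of 40 says nothing about whether the genes share that junction.

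The short Dusp7 transcript is shown because 1 of the 2 quantifications rests on it. Dusp7-202 (chr9:106369612-106370875, plus strand) joins 95 bases from inside intron 1 of the coding transcript Dusp7-201, here in capitals, to 175 bases of the next coding exon, here in lower case.
Dusp7-202: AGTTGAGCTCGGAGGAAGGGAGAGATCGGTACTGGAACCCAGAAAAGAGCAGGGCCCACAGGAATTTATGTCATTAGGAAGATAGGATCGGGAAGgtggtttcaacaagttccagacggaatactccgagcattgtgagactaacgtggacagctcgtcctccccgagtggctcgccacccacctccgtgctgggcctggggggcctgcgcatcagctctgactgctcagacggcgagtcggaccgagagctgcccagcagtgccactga

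Among the nuclear, inducible phosphatases, Dusp1 (chr17:26505590-26562128, minus strand) measured 8.93, 9.99 and 11.18 TPM in replicates 1, 2 and 3, a mean of 10.03 ± 1.13 (SD, n = 3), from 142, 190 and 252 expected counts. Expected counts are the authors' estimates of reads per gene. Dusp2 (chr2:127336159-127338376, plus strand), best known from activated immune cells, measured 6.08, 8.48 and 5.91 TPM (6.82 ± 1.44 SD, n = 3) from 62, 89 and 87 expected counts. Dusp1 lay above Dusp2 in every library, and the ranges of the genes did not meet. Because the RNA is from bulk samples, fewer cells expressing a gene and less of its RNA per cell cannot be told apart, here or in the values that follow.

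Dusp4 (chr8:34807297-34819894, plus strand) was lower, at 1.44, 1.26 and 2.05 TPM (1.58 ± 0.41 SD, n = 3). Dusp5 (chr19:53529109-53542431, plus strand), whose enzyme acts on ERK in the nucleus, measured 0.19, 0.13 and 0.23 TPM (0.18 ± 0.050 SD, n = 3). Only 5, 4 and 9 expected counts stood behind the Dusp5 values, and the exact Poisson 95% interval in replicate 1 ran from 0.062 to 0.443 TPM. These intervals cover counting error only. The 4 inducible nuclear genes therefore did not share a level: the mean of Dusp1 held 22.4% of the summed mean TPM of the 9 genes and that of Dusp5 held 0.41%.

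Of the ERK-directed cytoplasmic enzymes, Dusp6 (chr10:99263231-99267489, plus strand) measured 0.98, 1.71 and 2.00 TPM (1.56 ± 0.53 SD, n = 3) from 28, 42 and 68 expected counts. It had the widest relative spread of the 9, with the highest library 2.04-fold above the lowest. Dusp7 (chr9:106368632-106375724, plus strand) measured 4.15, 3.93 and 5.56 TPM (4.55 ± 0.88 SD, n = 3) and was above Dusp6 in every library.

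Of the enzymes that prefer p38 and JNK, Dusp16 (chr6:134715468-134792625, minus strand) measured 4.24, 3.28 and 5.24 TPM (4.25 ± 0.98 SD, n = 3). Dusp10 (chr1:184013302-184075636, plus strand) measured 0.61, 0.50 and 0.57 TPM (0.56 ± 0.056 SD, n = 3) from 17, 17 and 25 expected counts. Within this pair Dusp16 was the higher gene in all 3 libraries.

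Dusp3 (chr11:101971143-101987013, minus strand) measured 13.56, 13.76 and 18.53 TPM (15.3 ± 2.81 SD, n = 3) from 558.4, 691.23 and 992.64 expected counts. Its lowest library was above the highest library of every other member, and its mean was 34.1% of the summed mean TPM of the 9 genes. Among protein-coding genes it stood at percentile 79.3, 77.0 and 81.1 of the 3 libraries, and Dusp5 at percentile 44.6, 41.9 and 40.2.

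**Figure D1:**
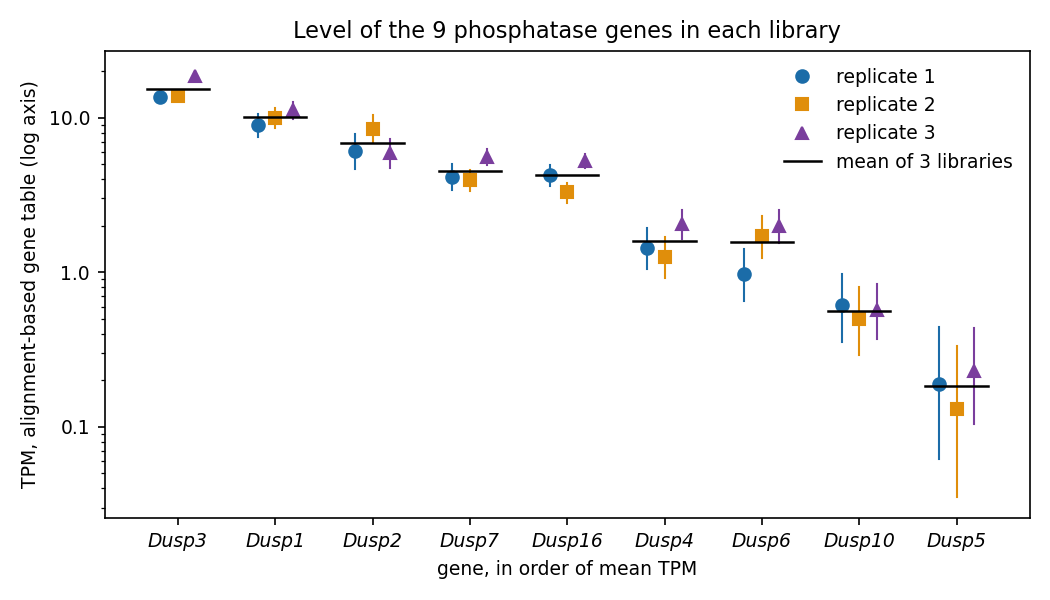
Level of each of the 9 genes in each library, in TPM from the alignment-based gene table on a log axis; points are libraries, vertical lines are exact Poisson 95% intervals on the expected counts, and black bars are means of the 3 libraries. Dusp3 (13.56 to 18.53 TPM) lies above all other members in every library, and Dusp5 (0.13 to 0.23 TPM) below all of them.

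In the order of mean TPM, Dusp3, Dusp1, Dusp2, Dusp7, Dusp16, Dusp4, Dusp6, Dusp10 and Dusp5, the ranges of neighbouring genes did not overlap in 6 of 8 pairs. Dusp7 and Dusp16 overlapped, with means 1.07-fold apart, and so did Dusp4 and Dusp6, with means 1.01-fold apart. Without replicate 1, Dusp6 moved ahead of Dusp4. The order was made from the same values, so the separation of its neighbours is a description and has no test. A sign-flip test over 3 libraries cannot give a two-sided p below 0.25. The order also depends on the length of the transcripts to which reads were assigned. By expected counts, before division by length, Dusp7 (114, 163 and 270) was above Dusp2 (62, 89 and 87) in every library. In Dusp2, the 756-base Dusp2-202 held 64.1% of the alignment-based TPM on average.

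All 3 libraries gave 6 of the 9 genes at least 1 TPM, against 46.1% of the 22028 protein-coding genes. Dusp10 and Dusp5 were under 1 TPM in every library, and Dusp6 was under it in replicate 1. The median of the 9 means was 4.25 TPM, beside 0.913 TPM over all protein-coding genes and 11.8 TPM over those with a mean of at least 1 TPM. Summed over the 9 genes, the level was 40.2, 43.0 and 51.3 TPM (44.8 ± 5.76 SD, n = 3).

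The read-based quantification, which assigned reads to transcripts without the alignment, gave another order: Dusp7 stood higher, Dusp16 came before Dusp2, and Dusp6 before Dusp4. Summed over its transcripts, Dusp7 measured 21.6, 19.7 and 20.1 read-based TPM, which was 5.20, 5.01 and 3.61 times its alignment-based TPM in the same libraries. It moved from the fourth place to the second, after Dusp3 with 21.4, 23.2 and 25.0 read-based TPM, and these ranges overlapped. Dusp7 was the only member at least 2-fold higher by the read-based table in every library, on the log2(TPM + 1) scale, and 12.5% of protein-coding genes were. No member was at least 2-fold lower in every library, beside 0.0319% of protein-coding genes.

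The difference in Dusp7 was in Dusp7-202, the 270-base transcript printed above. The read-based table gave it 16.2, 13.6 and 13.8 TPM from 26.1, 36.1 and 38.2 estimated counts, whereas the alignment-based table gave it 0 counts in all 3 libraries. The long coding transcript Dusp7-201 (3213 bases), with 152.8, 280.5 and 421.0 estimated read-based counts, reached only 3.26, 3.52 and 5.12 TPM. Coding transcripts of Dusp7 thus held 89.4% ± 2.71 (SD, n = 3) of its read-based counts but 29.0% ± 3.72 of its read-based TPM. TPM here divides counts by an effective length, which is shorter than the transcript. It was 103, 100 and 101 bases for Dusp7-202, and 3008, 2999 and 2995 bases for Dusp7-201. Divided by these, the fewer reads on the short transcript outweighed the many on the long one. Whether the reads assigned to Dusp7-202 come from it was not tested.

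**Figure D2:**
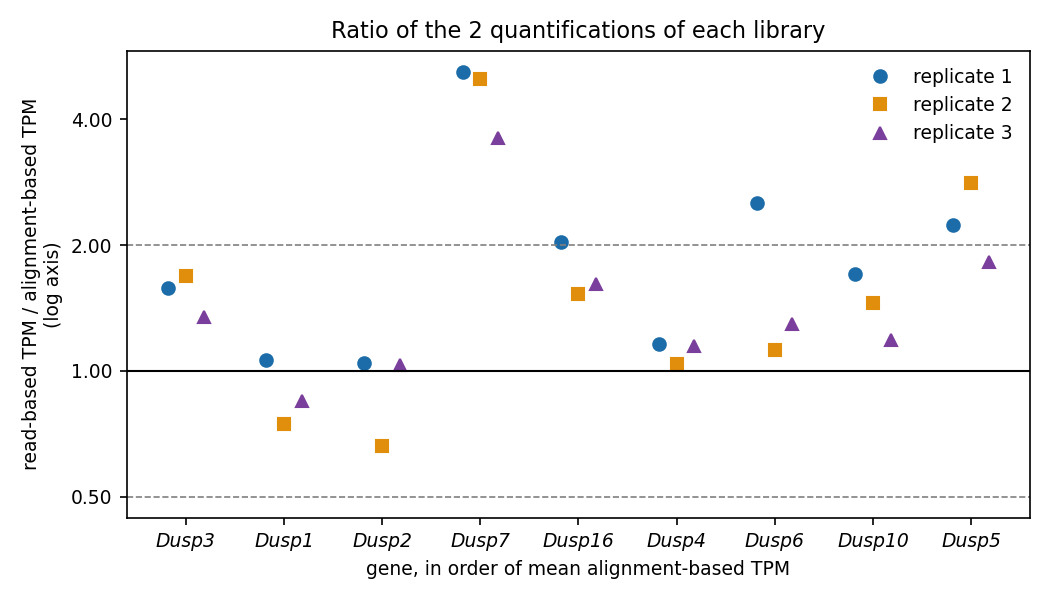
Read-based TPM divided by alignment-based TPM for each gene and library, on a log axis; the solid line marks equal values and the dashed lines a 2-fold difference either way. Dusp7 lies between 3.61 and 5.20 in all 3 libraries, whereas Dusp5, Dusp6 and Dusp16 pass 2-fold in some libraries only.

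The other members moved less between the tables. Read-based TPM was the higher value in every library for 7 of the 9 genes and not for Dusp1 or Dusp2, against 53.9% of all protein-coding genes and 65.2% of those with a mean of at least 1 TPM. Dusp1 measured 9.49, 7.46 and 9.48 read-based TPM, below its alignment-based value in replicates 2 and 3. Dusp2 measured 6.34, 5.59 and 6.12, below it in replicate 2. Dusp16 measured 8.62, 5.01 and 8.44 read-based TPM, a ratio of 2.03 in replicate 1 but of 1.53 and 1.61 in the others. With the read-based order, 4 of 8 neighbouring pairs had ranges that did not overlap.

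Dusp1 reads were assigned mainly to the transcripts that keep an intron. Retained-intron transcripts held 85.8%, 83.1% and 84.8% of its read-based TPM (84.6% ± 1.37 SD, n = 3), and coding transcripts 12.5% ± 1.84. By estimated counts the retained share was 158 of 188, 228 of 279 and 291 of 344, and the Wilson 95% interval in replicate 2, the lowest, ran from 76.8% to 85.8%. The alignment-based transcript table put 92.3% ± 0.95 (SD, n = 3) of Dusp1 TPM there, so the intron-keeping forms led in both tables.

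The intron transcripts of Dusp1 were both assigned reads in every library. Whether the reads assigned to such transcripts of Dusp1 and Dusp2 come from them or from RNA still being spliced was not tested. Dusp1-203, which keeps intron 2, had 111, 178 and 219 read-based counts and 3.38, 3.19 and 3.80 TPM. Dusp1-204, which keeps intron 3, had 47.1, 49.9 and 72.4 counts and 4.76, 3.00 and 4.24 TPM. The fully spliced coding transcript Dusp1-202 had 0.78, 0.84 and 0.45 TPM, below both in every library. Dusp1-203 shares 1944 of its 2313 bases with Dusp1-202 and has 369 of its own, so most of its reads could be placed on either transcript and were divided by the authors' model.

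In Dusp2 the retained-intron transcript Dusp2-202 had 4.44, 3.65 and 3.90 read-based TPM, above the coding Dusp2-201 with 1.90, 1.94 and 2.22. It held 66.3% ± 3.32 (SD, n = 3) of the read-based TPM and 64.1% ± 5.40 of the alignment-based TPM. By counts, however, it held 43.4% ± 3.89, because Dusp2-202 has 756 bases and Dusp2-201 has 1617. Whether the intron-keeping form led in Dusp2 therefore depended on the unit, whereas in Dusp1 it led by TPM and by counts.

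**Figure D3:**
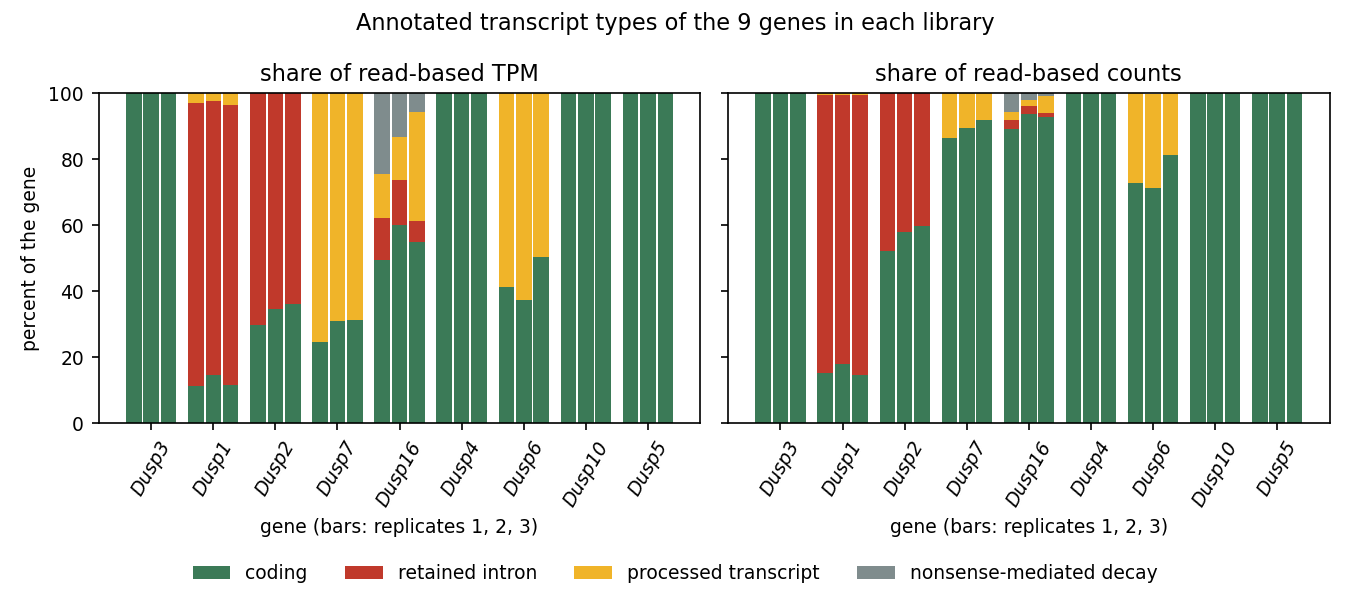
Share of each gene's read-based TPM (left) and read-based estimated counts (right), in percent, by annotated transcript type, with 1 bar per library. The retained-intron share of Dusp1 stays over 80% in both panels, whereas the large processed-transcript share of Dusp7 is seen for TPM and is the smaller part of its counts, of which coding transcripts hold 89.4% on average.

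Of the 7 members with a mean of at least 1 read-based TPM, Dusp1, Dusp2 and Dusp7 had under 50% of their read-based TPM in coding transcripts in every library, against 44% of the 13271 protein-coding genes at that level. Of these members, 3 have an annotated retained-intron transcript. Dusp1 and Dusp2 had over 50% of their read-based TPM in transcripts of this type in every library and Dusp16 did not. The share was 37.4% over 7586 genes with such a transcript. Retained-intron transcripts that together held most of a gene's TPM were thus common in these libraries. In Dusp1 it took both: Dusp1-203 held 35.6%, 42.8% and 40.1% and Dusp1-204 held 50.2%, 40.3% and 44.8%. Over the 9 genes together, coding transcripts held 56.6% ± 3.79 (SD, n = 3) of the summed read-based TPM. This counts Dusp3, Dusp4, Dusp5 and Dusp10 as wholly coding, because all their annotated transcripts are. Dusp3 alone had a mean of 23.2 of the 71.1 summed read-based TPM.

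Dusp16 and Dusp6 were divided among several transcripts. Coding transcripts held 54.9% ± 5.30 of the read-based TPM of Dusp16 and 91.9% ± 2.36 of its counts. On average the largest part went to Dusp16-204, a coding transcript of 3305 bases of which 2413 lie outside the longest form, with 2.62, 1.87 and 2.64 TPM. The longest form, Dusp16-201, had 0.95, 0.93 and 1.63 read-based TPM. The 553-base non-coding Dusp16-205 had 1.15, 0.65 and 2.80, the highest of all in replicate 3. The alignment-based quantification, however, gave Dusp16-205 0 counts in all 3 libraries. It put 96.6% ± 5.87 (SD, n = 3) of Dusp16 TPM in coding transcripts. In Dusp6, coding transcripts held 43.0% ± 6.78 of the read-based TPM and 75.3% ± 5.44 of the counts. The non-coding Dusp6-202 had 0.79, 0.69 and 0.85 read-based TPM from 6.79, 10.02 and 12.7 counts. By the alignment-based quantification, coding transcripts held 78.6% ± 19.1 (SD, n = 3) of Dusp6 TPM, and Dusp6-202 had 0, 4.36 and 4.79 counts.

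All annotated transcripts of Dusp3, Dusp4, Dusp5 and Dusp10 are coding, so their shares carry no information on splicing. In Dusp3 the tables divided the reads differently. Dusp3-206 had 12.8, 9.99 and 10.02 read-based TPM, and the 496-base Dusp3-207 had 6.25, 11.1 and 9.05. The alignment-based table gave Dusp3-207 0, 0 and 1.33 counts and gave the long Dusp3-201 189.5, 397.7 and 722.7 counts, where the read-based table gave 63.6, 152.0 and 428.6. The authors' posterior standard deviations for Dusp3-206 were 72.9, 85.3 and 127 counts around means of 349, 297 and 271, so the division within Dusp3 was less sure than its sum.

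The spread of the 9 genes between libraries ran from 1.22-fold between the lowest and highest TPM in Dusp10 to 2.04-fold in Dusp6. In edgeR's quasi-likelihood fit on rounded expected counts, with an F test of each gene's dispersion against the trend, 14839 genes were tested and 0 (0%) passed an adjusted p of 0.05 (Benjamini-Hochberg), while 747 had an unadjusted p under 0.05. The filter on low counts kept 8 members and removed Dusp5; 0 of the 8 passed, and 0 had an unadjusted p under 0.05. Dusp16 had the highest dispersion relative to the trend, at 2.15 times it (adjusted p = 0.992, edgeR), and Dusp1 the lowest, at 0.063 times. A p here measures only the spread between these samples. In simulated data this test recovered 92% of the genes given a 4-fold change in 1 library and none of those given a 2-fold change. The simulated libraries had less random spread than was fitted here, and the changed genes had higher mean counts than Dusp6 or Dusp10. Spreads of the members' size were thus beyond the reach of this test. Its result says nothing about whether the levels of the 9 genes are stable.

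Replicate 3 gave the highest alignment-based TPM in 7 of the 9 genes, Dusp10 and Dusp2 being the others, against 41.8% of protein-coding genes with a mean of at least 1 TPM. By edgeR's TMM-scaled CPM, counts scaled to library size, it was also 7 of 9, against 36.6%. By read-based TPM it was 3 of 9, against 43.2% of protein-coding genes with a mean of at least 1 read-based TPM. Dusp10 and Dusp5 are under both means, so the 9 genes and those behind the shares are unlike sets. Of the 7 members at that read-based mean, Dusp3, Dusp4 and Dusp6 were highest in replicate 3. The same library carried stromal genes: the summed level of 11 fibroblast and stromal markers was 1.36, 2.93 and 673 TPM, with 6, 2 and 0 of them at 0, and Col1a1 measured 0.01, 0.43 and 149 TPM and Sparc 0, 0.27 and 126. The 8 macrophage markers summed to 778, 1017 and 918 TPM, led by Adgre1 at 287, 434 and 320, and none of the 8 was under 1 TPM in any library. Summed neutrophil, T cell and B cell markers stayed at or under 1.05 TPM, and dendritic and endothelial ones at or under 11.7 TPM; the highest of each were Ngp, Lck, Cd79a, Zbtb46 and Kdr. The part of stromal RNA in the members' levels was not tested, and without replicate 3 the summed level of the 9 genes was 41.6 TPM. Dusp3 had a mean of 13.7 TPM without that library, and the order of the 9 genes was as before.

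The genes of the kinase cascade that these phosphatases oppose were mostly at higher TPM. Over all protein-coding genes, 46.1% reached 1 TPM in all 3 libraries, which is the share to set beside the counts that follow. Of 13 MAP kinase genes, 7 did. Among them Mapk14, which encodes p38 alpha, measured 52.2 ± 8.96 TPM (SD, n = 3), and Mapk4 was lowest at 0.0067. All 7 MAP kinase kinases were at 1 TPM or more, from Map2k2 (51.6) and Map2k5 (36.8) to Map2k6 (1.34). Of 17 MAP3 kinases, 16 were, led by Map3k8, the kinase that passes TLR4 signals to ERK in macrophages, at 119 ± 20.2 TPM, with Map3k6 lowest at 1.46. Of 11 kinases activated by MAP kinases, 10 were, from Mknk1 at 150 ± 18.1 and Mapkapk5 at 50.7 to Rps6ka6 at 0.01. The medians of these 4 lists were 12.2, 19.2, 26.3 and 18.4 TPM, beside 4.25 TPM for the 9 phosphatases.

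Other dual-specificity phosphatases and feedback genes were more uneven. Of 16 other dual-specificity phosphatases, 6 reached 1 TPM in all 3 libraries, against 46.1% of all protein-coding genes. Their median was 0.43 TPM. They were led by Dusp11, an RNA phosphatase, at 92.5 ± 6.18 TPM and Styx, a catalytically dead relative, at 12.4, while Dusp26 was listed at 0 in all 3. Dusp8 and Dusp9, the remaining MAP kinase phosphatases with a kinase-binding domain, measured 0.22, 0.11 and 0.29 TPM and 0.03, 0 and 0.09 TPM, so neither reached the level of Dusp10. They fall outside the naming rule and were named after their values were seen. Of 15 further phosphatases and ERK feedback inhibitors, 9 were at 1 TPM or more, led by the Ras GTPase activators Rasa1 at 64.9 and Nf1 at 40.3, with Spry4 lowest at 0.033. Of 15 genes that respond to MAP kinase signalling, 7 were, led by Zfp36, which destabilises cytokine mRNAs, at 33.2 ± 3.26 TPM and Junb at 28.2, with Fosb lowest at 0.15. In the test of spread, 0 of all 14839 genes tested passed, so the 0 in each of these lists tells nothing about the lists.

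**Figure D4:**
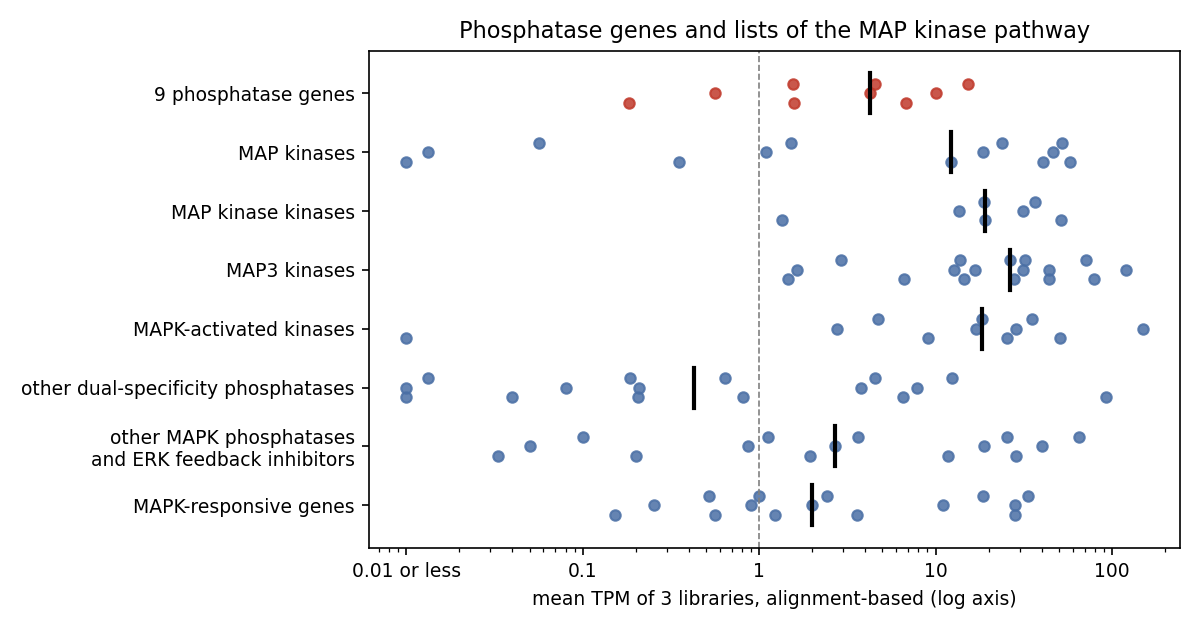
Mean TPM over the 3 libraries, alignment-based and on a log axis, of the 9 phosphatase genes and of the genes in 7 lists of the MAP kinase pathway; each point is a gene, black bars are medians and the dashed line is 1 TPM. The phosphatase median of 4.25 TPM lies below those of the kinase lists (12.2 to 26.3 TPM) and above that of the other dual-specificity phosphatases (0.43 TPM).

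The promoters were compared in the 250 bases before each start site in the RefSeq table on GRCm38.p6, which holds 8 of the 9 genes (not Dusp4) among 32851 promoters. Their median GC content was 68.4%, beside 52.4% over all. The cyclic AMP response element TGACGTCA, searched like all motifs on both strands, was found in Dusp1 alone, from 143 to 136 bases before its start, and in 1.55% of all promoters. Its 5-base core TGACG, which overlaps it, was found in Dusp1, Dusp5 and Dusp16 and in 17.8% of promoters. The E-box CACGTG was in Dusp1 and Dusp2 and in 6.02% of promoters. The GC box GGGCGG was in 6 of the 8 genes, all but Dusp6 and Dusp7, and in 32.7% of promoters. None of the 8 held TGAGTCA (AP-1), TATAAA or the ETS motif CCGGAAGT, found in 4.46%, 12.4% and 2.88% of promoters. These are matches of letters in a window, and no binding was measured.

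Some members overlap other genes on the opposite strand. Ergic1, at 14.7 TPM, overlaps 640 bases of the Dusp1 span, Gm20659, at 3.70 TPM, overlaps 717 bases of Dusp3, and Gm36328, at 1.49 TPM, overlaps 947 bases of Dusp16. In the low Dusp10, 1700056E22Rik, at 0.21 TPM, overlaps 1272 bases. The sources used here do not say whether the counting used strand, so reads in these stretches could belong to either gene.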

How the data were processed

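Total RNA from the chromatin fraction was measured in 3 libraries of 1 group. Per the README files that came with the deposited tables, the gene tables and the alignment-based transcript tables come from a transcriptome alignment on mm10 with GENCODE M21, and the read-based transcript tables from the reads and an index. The sources used here do not name the tools, their versions or the strand setting. The authors deposited expected counts (estimated reads, not whole numbers) and TPM in the first, with posterior means and standard deviations of the counts, and estimated counts and TPM in the last. Expected counts summed to 11958978, 17283529 and 19475027, and read-based counts to 18600052, 31838203 and 33200218. Rows naming no gene held 1.31%, 0.476% and 0.240% of expected counts and were left out of the fit and its library sizes. Starting RNA was 1000, 250 and 500 ng in replicates 1, 2 and 3, per the labels. No pair of libraries agreed within sampling noise (their chi-square statistics were 39.1 to 72.0 times the degrees of freedom).

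Levels are described without a test, since there is 1 group. Expected counts were rounded and fitted with edgeR 4.0.16 (R 4.3.3; filterByExpr, minimum count 10; TMM; quasi-likelihood, intercept only), and the quasi-dispersion of every gene was compared with the trend by an F test, Benjamini-Hochberg over all genes. The test was also tried on simulated data. Quantifications were compared as log2(TPM + 1), with a pseudocount of 1 TPM. Intervals on shares are Wilson intervals at 95%. All 9 genes are named; of each pathway list the 2 highest and the lowest by mean TPM, of each cell type list the highest, with Col1a1 and Sparc, and transcripts holding at least 10% of a gene's mean read-based TPM; of the 21 such transcripts, those the comparisons rest on are described. The values of 2 genes that this rule names are not reported here. The 9 genes and all lists were chosen with earlier results of these data known. Alternatives were the other quantification, TPM rescaled to the nuclear protein-coding genes plus the long non-coding ones, other thresholds, filters and scalings (DESeq2 1.42.0 size factors), and leaving out each library. Sequences come from GENCODE M21 transcripts, promoters from RefSeq (GRCm38.p6).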

Additional observations from a re-analysis of the deposited data

How the results depend on the processing

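The summed level of the 9 genes was 44.8 TPM, but 71.1 TPM from the read-based tables and 102 TPM when TPM was rescaled to the nuclear protein-coding genes plus the long non-coding ones, which held 39.4%, 49.3% and 44.0% of all TPM in replicates 1, 2 and 3. Levels in TPM are therefore relative to what else was counted. Leaving out 1 library gave 41.6 to 47.2 TPM. With a threshold of 5 TPM, 3 genes passed in every library in place of 6. The share of the summed TPM in coding transcripts was 56.6% from read-based TPM, 67.8% from alignment-based TPM and 85.9% of read-based counts. Each of these shares counts Dusp3, Dusp4, Dusp5 and Dusp10 as wholly coding, because all their annotated transcripts are. The number of genes more variable than the trend was 0 with all libraries, 49 with no filter on low counts, and 0 to 73 when 1 library was left out (8 without replicate 1 and 73 without replicate 3), by edgeR. It was also 0 with adjusted deviances and with a robust trend, both chosen after seeing the data. Spreads as small as those of the members were beyond what this test could find, so the absence of members among the calls says nothing about their stability. Dusp7 was the gene whose quantifications differed at least 2-fold in every library under all alternatives tried (a threshold of 1.5-fold, a pseudocount of 0.1 TPM, and each library left out). No paired analysis was possible because there is only 1 group. With 4 to 9 expected counts for Dusp5 and 17 to 25 for Dusp10, depth limits what can be said of either gene.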
